A study of Drosophila melanogaster with 3 samples.

Results

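The 13 highest peaks of the fly protein Insensitive (Insv) lay nearest to 14 protein-coding genes: Dpm3, Prosap, PH4alphaEFB, rdx, VhaAC45, l(1)sc, Uba1, Sgt1, CG43138, Pglym78, Cph, CG10602, mRpL13 and tun. The genes were chosen by a measured value: each has the transcription start site (TSS) nearest to one of the 13 peaks with the highest score among 4753 peaks. CG10602 and mRpL13 share a start and tie for the same peak, so 13 peaks give 14 genes of the 13945 protein-coding genes examined. A list of 10 genes named for this set leaves out VhaAC45, l(1)sc, CG43138 and mRpL13, which the rule also finds. All 14 are described here. Because strength chose them, the strength of these peaks is a description and carries no test.

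The data are chromatin immunoprecipitation followed by sequencing (ChIP-seq) on whole embryos of Drosophila melanogaster, males and females together, with ages between 0 and 24 h. The embryos came from a single transgenic line with green fluorescent protein (GFP) on the C-terminus of Insv, and the pull-down used an antibody to GFP. The 3 biological replicates all carry the fusion and form 1 group, with no second condition. Embryos without the fusion were not analysed here. A 24 h collection mixes all stages and all cell types, so fewer cells with a bound site and less binding per cell cannot be told apart. The list called IDR peaks below holds the 4753 regions that passed the authors' test of reproducibility, the irreproducible discovery rate (IDR). Each replicate also has its own list of 30000 regions, of which 8416, 13955 and 12195 had a q-value below 0.05 in replicates 1, 2 and 3. Depth is unknown, since no read totals are given.

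Insv belongs to the BEN-solo proteins, which carry a single BEN domain, a fold that binds DNA. It acts as a corepressor in Notch signalling during neural development, and it also binds chromatin by itself at palindromic sites. Its relatives Elba1 and Elba2 form, with the adaptor Elba3, the ELBA complex, which was described at an insulator element of the bithorax complex and recognises a related, asymmetric site. M1BP and DREF are other DNA-binding proteins, common at promoters of broadly expressed fly genes.

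The sites sought in these peaks were the Insv core CCAATTGG, the degenerate Insv site, the Elba site CCAATAAG, the M1BP site GGTCACAC, the DREF site TATCGATA, the GAGA sequence GAGAGAG and the Su(H) site GTGGGAA. Each was sought on both strands, and the core and the degenerate site can overlap. A 6-base site, CCAATT, which is the start of the core and so lies inside every core, was added after the sequences had been seen. The windows printed below show which summits carry a whole site and which carry only the 6-base site. They run over 101 bases centred on the summit, on the plus strand of dm6, and were read from the Release 6 genome sequence. Their positions are chr3R:13403187-13403287 at Dpm3, chr3R:30467211-30467311 at PH4alphaEFB, chr3R:14026308-14026408 at rdx, chrX:407593-407693 at l(1)sc, chr3R:8306426-8306526 at Sgt1, chrX:7522077-7522177 at CG43138 and chr2L:18859282-18859382 at CG10602/mRpL13. Capitals mark every site found in the window; CTTATTGG, AATTGG and GTGTGACC are the Elba, 6-base and M1BP sites read on the other strand.
Dpm3: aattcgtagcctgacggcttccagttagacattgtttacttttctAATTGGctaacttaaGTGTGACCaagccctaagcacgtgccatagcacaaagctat
PH4alphaEFB: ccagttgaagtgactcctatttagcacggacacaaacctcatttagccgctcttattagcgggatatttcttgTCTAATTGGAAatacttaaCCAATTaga
rdx: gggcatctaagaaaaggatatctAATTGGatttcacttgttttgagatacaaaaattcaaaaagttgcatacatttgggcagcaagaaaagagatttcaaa
l(1)sc: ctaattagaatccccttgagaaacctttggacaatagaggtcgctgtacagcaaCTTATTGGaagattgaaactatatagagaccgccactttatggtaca
Sgt1: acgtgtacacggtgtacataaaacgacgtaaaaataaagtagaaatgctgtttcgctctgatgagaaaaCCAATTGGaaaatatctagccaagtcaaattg
CG43138: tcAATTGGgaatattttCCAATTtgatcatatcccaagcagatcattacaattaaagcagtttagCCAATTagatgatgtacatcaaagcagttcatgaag
CG10602/mRpL13: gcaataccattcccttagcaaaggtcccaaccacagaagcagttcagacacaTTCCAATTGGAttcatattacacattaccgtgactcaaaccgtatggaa

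At Dpm3 the window holds a 6-base site 2.5 bp from the summit and an M1BP site 13.5 bp from it, and no whole Insv or Elba site. At PH4alphaEFB the capitals show the degenerate site, centred 28.0 bp from the summit, and a further 6-base site behind it. The rdx window has a single 6-base site. At l(1)sc an Elba site lies 7.5 bp from the summit, and overlapping degenerate sites, on either strand, cross the left edge of the window, so they are not counted in it. The Sgt1 window holds the core palindrome 22.5 bp from the summit. The CG43138 window holds 3 separate 6-base sites and no whole site. At CG10602 and mRpL13 the core and a degenerate site coincide, with their centres 7.5 and 7.0 bp from the summit.

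Counted over all peaks, 7 of the 13 summits had a core, degenerate or Elba site within 50 bp, against 369 of the 4753 IDR peaks (7.76%). The core was found at 2 of the 13, Sgt1 and CG10602/mRpL13, where 3.47% of all IDR peaks had it. The degenerate site was found at 3, Prosap, PH4alphaEFB and CG10602/mRpL13, against 4.5% of all. The Elba site was found at 3, l(1)sc, Pglym78 and Cph, against 1.83% of all. At Prosap the degenerate site was 17.0 bp from the summit, and at Cph the Elba site was 29.5 bp from it. At Pglym78 the Elba site lies 23.5 bp from the summit, in the following stretch of the plus strand at chr3R:29148221-29148249.
Pglym78: gacgcgctattCCAATAAGaccatactcc

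Further sites lay a little outside that distance. A degenerate site was 78.0 bp from the rdx summit, an Elba site 91.5 bp from the tun summit, and a core 56.5 bp from the Cph summit. Within 100 bp the count was therefore 9 of 13, against 11.0% of the IDR peaks. Over the whole peaks it was still 9, against 18.3% of the IDR peaks. The peaks without any of the 3 sites over their whole width were those at Dpm3, VhaAC45, Uba1 and CG43138.

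The 6-base site was within 50 bp of 8 of the 13 summits, against 13.1% of the IDR peaks. Those were Dpm3, PH4alphaEFB, rdx, VhaAC45, Uba1, Sgt1, CG43138 and CG10602/mRpL13, so each of the 4 peaks with no whole site had it. With the whole sites counted in, 12 of the 13 summits had one, against 15.9% of all IDR peaks, and the exception was tun, whose nearest 6-base site was 50.5 bp away. This count has no test, since the sequences themselves led to the 6-base site. Of the 7 peaks ranked 14 to 20, 2 had the 6-base site and 1, at Ugt36A1, had a core, degenerate or Elba site.

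Sites of other proteins were few at these summits, as they were over all IDR peaks. The M1BP site was near 1 of 13, Dpm3, against 2.76% of the IDR peaks. DREF, GAGA and Su(H) sequences were near 0 of 13, against 3.09%, 2.88% and 1.3% of the IDR peaks. In the wider Dpm3 peak there were 3 DREF sites, at 107.5, 124.5 and 144.5 bp from the summit. Farther from the summit, an M1BP site was also present at CG10602/mRpL13 (110.5 bp), Uba1 (287.5 bp) and tun (456.5 bp). A DREF site lay in the Uba1 peak (232.5 bp). GAGA sequences lay in the peaks of Prosap (96 bp), rdx (368 to 386 bp) and Uba1 (533 bp). Su(H) sites lay in those of Pglym78 (113 bp) and CG43138 (626 bp). Shares over all IDR peaks were not counted at these distances. The median GC content of the 101 bases was 39.6% at the 13 summits and 40.6% at all IDR peaks.

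**Figure D1:**
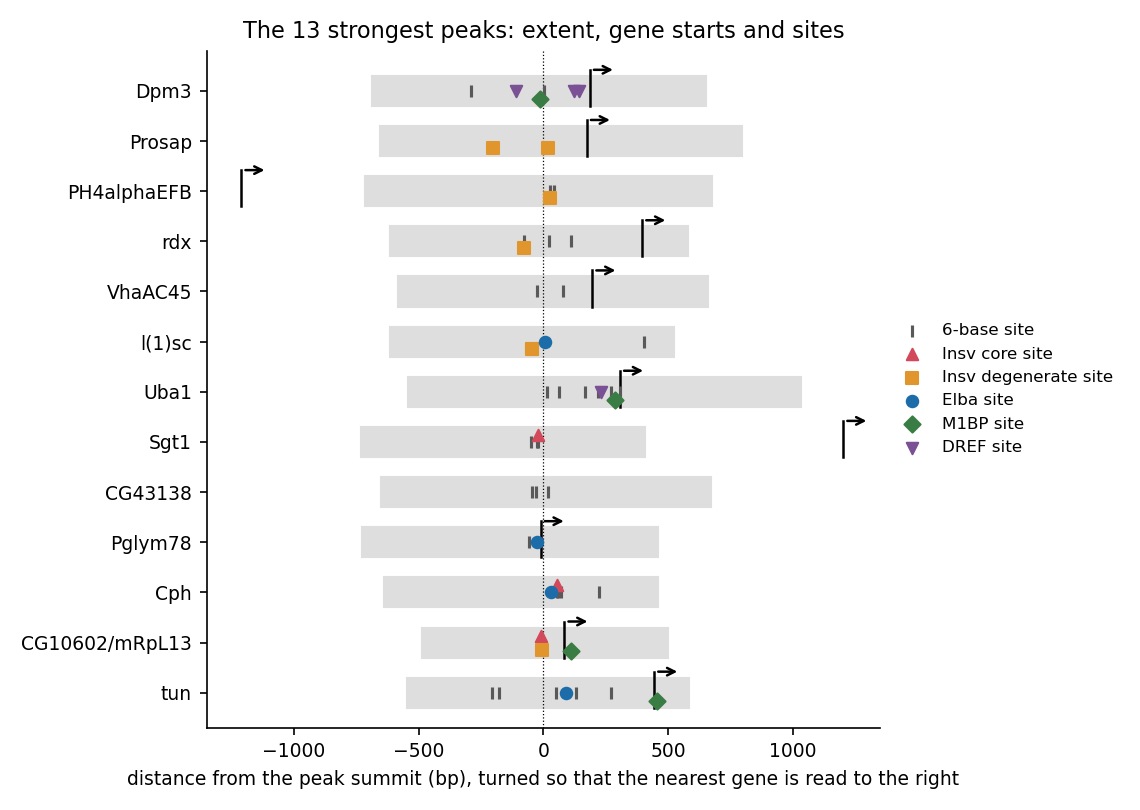
Each row is 1 of the 13 strongest peaks, drawn from edge to edge as a grey bar against the distance from its summit in bp and turned so that the nearest gene is read to the right; bent arrows are gene starts and symbols are sites. Whole Insv and Elba sites sit within 100 bp of the summit at 9 of the 13. At Dpm3, VhaAC45, Uba1 and CG43138 the 6-base site is the only one of the Insv type. The starts of l(1)sc, CG43138 and Cph lie beyond the plotted range.

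The order of the 13 peaks was close to the same in the separate lists of the replicates. Ranks below are given for replicates 1, 2 and 3 in that order, among 30000 regions by the authors' own score; its scale is not stated, so only values within a list are compared. The peak at Dpm3, which encodes a subunit of dolichol-phosphate mannose synthase (the enzyme that supplies mannose for glycosylation), ranked 1, 1 and 1. Prosap, the fly Shank scaffold of synapses, ranked 2, 2 and 3. PH4alphaEFB, a prolyl 4-hydroxylase of collagen, ranked 3, 3 and 2. These 3 peaks took the first 3 places in every replicate.

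The next peaks changed places by a little more. The peak at rdx (roadkill), an adaptor that brings the Hedgehog effector Ci to the Cullin 3 ubiquitin ligase, ranked 6, 5 and 4. The peak at VhaAC45, an accessory subunit of the vacuolar proton pump, ranked 7, 4 and 6. The one at l(1)sc, a proneural transcription factor of the achaete-scute complex, ranked 5, 9 and 7. All of these stayed among the first 9 places.

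The middle of the set spread more widely. Uba1, the enzyme that activates ubiquitin, had a peak of ranks 11, 6 and 8. Sgt1, a cochaperone of Hsp90, had ranks 15, 7 and 5. CG43138, for which no role is given here, had ranks 4, 10 and 9. Sgt1 had the widest spread of the set, with a mean rank of 9.0 ± 5.29 (SD, n = 3 replicates).

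The last 4 peaks lay near the edge. Pglym78, a phosphoglycerate mutase of glycolysis, ranked 9, 8 and 10. Cph (Chronophage), a zinc finger protein of neuroblast timing, ranked 13, 11 and 11. The peak shared by CG10602, annotated as an aminopeptidase of the leukotriene A4 hydrolase family, and mRpL13, a mitochondrial ribosomal protein, ranked 8, 12 and 16. The one at tun (tungus), an amidase that acts on N-terminal glutamine in the N-end rule pathway, ranked 10, 16 and 12. Apart from Pglym78, their ranks overlapped those of the peaks just outside the set.

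Of the 13 peaks, 12 were among the 13 strongest of each replicate, and 10 were so in all 3. The exceptions were Sgt1 in replicate 1, tun in replicate 2 and CG10602/mRpL13 in replicate 3. The IDR list draws on the same 3 replicates, so this is no independent repeat. How much each replicate contributed to that list was not measured.

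**Figure D2:**
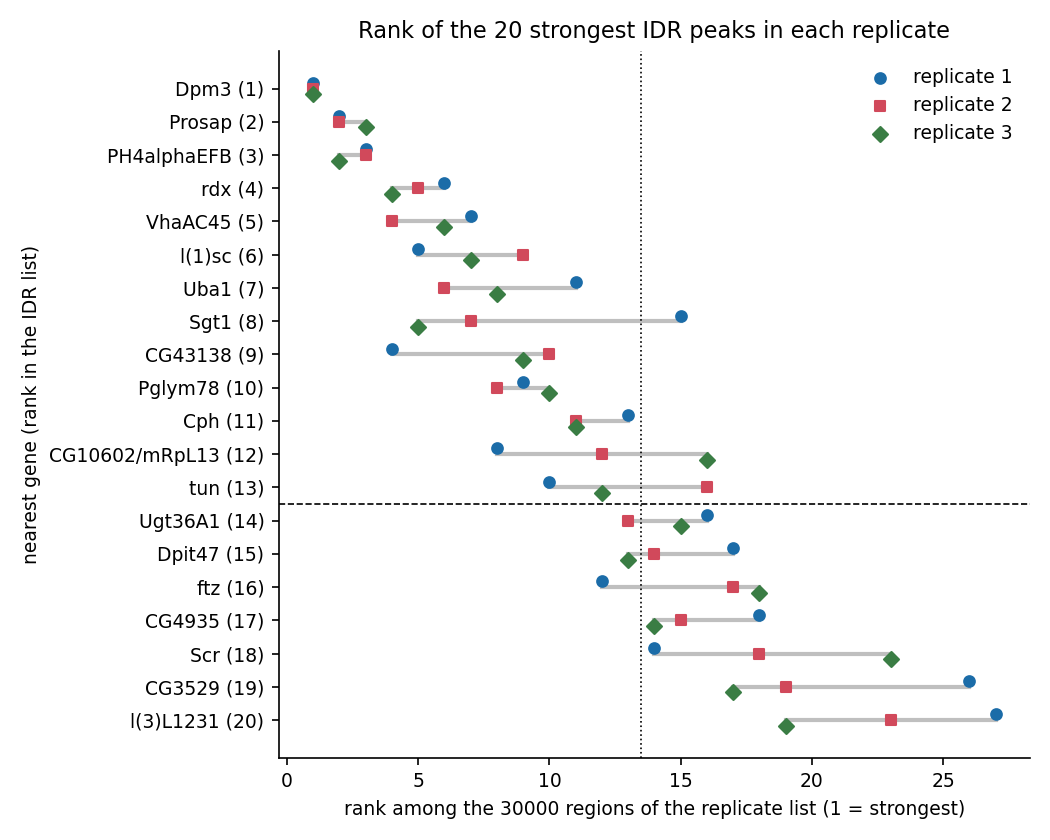
The rank of the 20 strongest IDR peaks (down the page) in each replicate's own list (horizontal axis, 1 = strongest); grey lines join the lowest and highest of the 3 replicates, the dashed line marks the edge of the set and the dotted line rank 13. The peaks at Dpm3, Prosap and PH4alphaEFB hold ranks 1 to 3 in every replicate, whereas ranks near the edge overlap those of Ugt36A1, Dpit47 and ftz.

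The score of the strongest peak, at Dpm3, was 29341, or 78.7 times the median of 373 over the IDR peaks, and that of rank 13, at tun, was 14912, or 40.0 times the median. The 13 peaks were 0.274% of the IDR peaks and held 5.83% of their summed score. There was no break at the edge of the set: tun had 50.8% of the highest score, while the peak of rank 14, at Ugt36A1, a UDP-glycosyltransferase, had 48.0%. The peak of rank 15 lay at Dpit47, a cochaperone of Hsp90 like Sgt1. By summed difference of log10 rank over the 3 replicates, the peak outside the set that was most like Cph was that of Dpit47 (0.29). Dpit47 was also the nearest outside peak for the 10 stronger members, at 0.63 for Pglym78 to 3.49 for Dpm3. The one most like CG10602/mRpL13 was that of Ugt36A1 (0.36), and the one most like tun was that of the pair-rule gene ftz (0.28). Since strength chose the set, the nearest outside peak by rank comes from near its edge. This likeness is one of strength only.

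The 13 peaks were wide and their summits moved little between lists. Widths ran from 987 bp at CG10602/mRpL13 to 1579 bp at Uba1, with a median of 1196 bp, against a median of 510 bp over the IDR peaks. Of the IDR peaks, 368 (7.74%) were at least as wide as the narrowest of the 13, so all 13 belonged to a minority. The width of 510 bp was shared by exactly 2528 IDR peaks. In the lists of replicates 1, 2 and 3 the 13 peaks had median widths of 881, 1203 and 1219 bp, beside the commonest widths of 490, 550 and 556 bp in those lists. Replicate 1 gave the narrowest region for each of the 13.

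At Uba1 the region was 903, 1559 and 1593 bp wide in replicates 1, 2 and 3, a mean of 1352 ± 389 bp (SD, n = 3). At tun it was 634, 1153 and 1087 bp wide. At l(1)sc it was 881, 1132 and 1131 bp, the smallest spread of the set (1048 ± 145 bp). Width is not independent of strength here: the widest IDR peak, of 2583 bp, ranked 72, and the plot of width against rank shows few narrow peaks among the strongest.

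The summit of each of the 13 lay within 13 bp of its IDR summit in every replicate. The largest shift was 2 bp at l(1)sc and 13 bp at Uba1, and the median over the 13 was 7 bp. Over the 4635 IDR peaks found in all 3 lists the median of the largest shift was 46 bp, and 594 of them stayed within 13 bp. Small shifts were therefore not confined to the 13. Each shift was measured to the strongest replicate region that holds the IDR summit. Where IDR records overlap, that region can belong to a neighbouring summit, so a large shift need not mean that a summit moved. Such overlap was found at 29.9% of all IDR peaks and at none of the 13, so the medians of 7 and 46 bp are not fully alike.

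**Figure D3:**
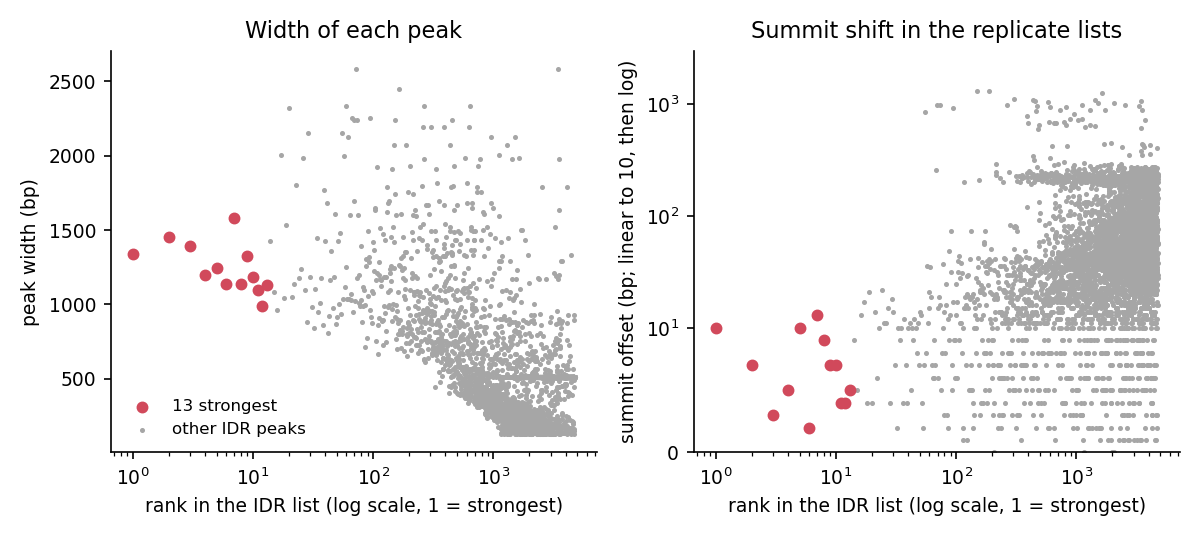
Peak width in bp (left panel) and the largest distance in bp between the IDR summit and the summit in any replicate list that holds it (right panel), each against rank on a log axis; red points are the 13 strongest peaks and grey points the other IDR peaks. The red points lie between 987 and 1579 bp in width and at 13 bp or less in summit shift. Toward weaker ranks the grey points fall in width, many of them to 510 bp, while their summit shifts spread to larger values. Where IDR records overlap, a shift can be measured to a neighbouring summit.

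None of the 13 peaks overlapped another IDR record (0 of 13), against 1422 of 4753 (29.9%) of all. Overlapping records can share a region, with a record for each summit, or can be neighbouring regions with different edges. Overlap alone does not mark an added summit. In single replicates, 3 of the 13 did hold 2 regions: VhaAC45 and Cph in replicate 1, and tun in replicates 2 and 3. How many of all IDR peaks did so was not counted. The nearest other IDR summit was 1081 bp away at Sgt1 and 34311 bp away at Cph. The median of that distance was 5941 bp for the 13, against 2335 bp for all IDR peaks.

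By position, 8 of the 13 summits were within 500 bp of a protein-coding TSS, against 63.2% of the IDR peaks. At this distance the share was close to that of all peaks. The median distance to the nearest such TSS was 396 bp for the 13 and 212 bp for all. The 8 promoter peaks were those of Dpm3, Prosap, rdx, VhaAC45, Uba1, Pglym78, CG10602/mRpL13 and tun. By chromosome arm, 5 of the 13 were on 3R, 4 on 2R, 3 on X, 1 on 2L and 0 on 3L. Of all IDR peaks, 25.02% were on 3R, 18.85% on 2R, 18.22% on X, 17.46% on 2L and 19.90% on 3L.

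The promoter peaks differed in what lay around them. On dm6, the Dpm3 peak covered chr3R:13402583-13403924, with its summit 186 bp upstream of the start of Dpm3. It ran into yellow-e3, of the yellow family, and lay 1375 bp from the start of GILT1, a lysosomal thiol reductase. Neither of those starts had a summit within 500 bp. The Prosap peak (chr2R:14140279-14141730) had its summit 174 bp upstream of the start, and the nearest start of another coding gene, Rcd1, was 11632 bp away.

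A head-to-head pair of genes lay under 2 of the 13 peaks. The share of all IDR peaks at such pairs was not counted, so this number is only a description. At VhaAC45 (chr2R:9206782-9208024) the summit fell in the 437 bp between its start and that of Gnptab, 196 bp from VhaAC45 and 241 bp from Gnptab. At Pglym78 (chr3R:29147532-29148718) only 76 bp separate its start from that of CG11882. There the summit was 11 bp inside Pglym78, in the 5′ UTR, and 87 bp from the CG11882 start. In both pairs the peak cannot be assigned to either gene alone.

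Internal starts were bound at rdx and tun. The rdx peak (chr3R:14025778-14026973) was 396 bp upstream of one of the 4 annotated starts of rdx, within an intron of its longer transcripts. The tun peak (chr2R:15847587-15848720) was 444 bp upstream of one of the 2 starts of tun, again inside the longer transcripts, and 773 bp from the start of CG8249. The Uba1 peak (chr2R:9692601-9694179) was 307 bp upstream of Uba1, with the start of Mmp2, a matrix metalloproteinase, 9777 bp away. The peak at CG10602 and mRpL13 (chr2L:18858831-18859817) was 84 bp upstream of their shared start and also touched tup, the fly Islet gene, whose own start is 21929 bp away.

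The other 5 peaks lay more than 1000 bp from any coding start. The PH4alphaEFB peak (chr3R:30466545-30467936) had its summit 1211 bp downstream of the start, in an intron. The gene spdo (sanpodo), a regulator of Notch signalling in asymmetric division, starts 9423 bp from it, inside PH4alphaEFB. The l(1)sc peak (chrX:407028-408166) was 2078 bp upstream of l(1)sc, inside an intron of CG32816, with the start of sc, another proneural gene of the complex, 11583 bp away. The Sgt1 peak (chr3R:8306070-8307208) was 1202 bp upstream of Sgt1 and touched no annotated gene.

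For the last 2 of these the nearest gene is a name given by distance. The CG43138 peak (chrX:7521476-7522798) lay 6177 bp from the start of CG43138, in an intron of CG32719, a gene whose own start is 25865 bp away. The Cph peak (chrX:7162083-7163182) lay 25000 bp downstream of the nearest Cph start, inside a Cph intron, and 52402 bp from fz4, which encodes a Frizzled receptor. With noncoding genes included, the nearest start was that of lncRNA:CR32730, 12873 bp away.

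At 3 of these 5 genes a separate, much weaker IDR peak sat on the gene's own start, a feature singled out after the values were seen. PH4alphaEFB had a peak with its summit 56 bp from the start, of IDR rank 2315 and score 380, against 21208 for the peak in its intron. Sgt1 had one 121 bp from the start, of rank 1702 and score 476, against 17115 for the upstream peak. l(1)sc had one 15 bp from the start, of rank 4237 and score 242, against 17605 for the upstream peak. These start peaks ranked 3002, 2440 and 2661 in replicates 1, 2 and 3 at PH4alphaEFB and 1678, 2043 and 2239 at Sgt1. At l(1)sc the ranks were 12293, 4746 and 2836, so that peak was weak and uneven. CG43138 and Cph had no summit within 500 bp of a start.

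Over the gene bodies with 5 kb on each side, the 14 loci held 38 IDR peaks, of which 12 were among the 13 strongest and 26 were others. The CG43138 peak is missing from this count because it lies farther than 5 kb from its gene. The 26 others ranked from 241 to 4721, with a median of 2256.5, so they lay through most of the list, and 14 of them were in its stronger 50%. Their median width was 510 bp, as over all IDR peaks. That exact width is shared by 2528 IDR peaks, so the equal medians say little about extent. Of the 26, 15 lay within 500 bp of a TSS of any gene, a share not counted over all IDR peaks. A core, degenerate or Elba site was within 50 bp of the summit at 4, against 7.76% of all IDR peaks. Those 4 include the overlapping records of ranks 1416 and 1863 in Cph. All 26 summits lay inside a region of each of the 3 replicate lists, as did those of 4635 of the 4753 IDR peaks. Records that overlap can match the same replicate region, as those of ranks 519 and 1903 in Prosap did. The count therefore does not show a separate summit for each record in every replicate. Overlapping records merged the 38 peaks into 34 loci, so 4 records were joined to another. Of these, only the Prosap pair of ranks 519 and 1903 shared both edges. The pairs in Cph and the pair at Slbp and Rpn2 had edges that differed.

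At least 1 IDR peak lay in the loci of 13 of the 14 genes, where 50.9% of coding genes had one, and at least 2 lay in those of 11, where 28.6% of coding genes did. The rule placed a peak at or near each gene, so these counts are a description. The median was 2.5 peaks for the 14 genes and 1 for all coding genes. The genes differ in length from 0.493 kb for Dpm3 and CG43138 to 104 kb for Cph, and longer loci can hold more peaks.

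The rdx locus held 6 IDR peaks, a number reached or passed by 186 coding genes. After its main peak, the strongest was of rank 241, beyond the end of rdx and 201 bp from the start of Orc2, a subunit of the origin recognition complex. Inside rdx, a peak of rank 858 lay 375 bp from another rdx start, and a peak of rank 926, in an intron, had both a core and a degenerate site, centred 29.5 and 30 bp from its summit. The peaks of ranks 2686 and 4606 lay at the starts of CG3061 and CG9922. rdx thus had summits within 500 bp of 3 of its 4 starts, of ranks 4, 858 and 2686.

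In Cph, which held 5 IDR peaks, the main intronic peak stood apart from 2 pairs of overlapping records. The pair of ranks 1416 and 1863 lay 1005 and 1206 bp downstream of a Cph start, in a 5′ UTR exon, and each summit had its own core, 33.5 and 40.5 bp away. The pair of ranks 708 and 2916 lay beyond the end of Cph, in an intron of lncRNA:CR44357. The record of rank 2916 fell at 13245, 2202 and 2038 in the lists of replicates 1, 2 and 3, so replicate 1 ranked it far lower than the others.

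Prosap held 4 IDR peaks. The pair of ranks 519 and 1903 shared a region deep in its introns, 67589 and 67342 bp from the start, and the stronger had a core 13.5 bp from its summit. The peak of rank 2796 was 10403 bp into the gene. The tun locus held 3 peaks, and its other 2, of ranks 2730 and 4721, lay in its body near CG33465 and Zasp52.

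Around Pglym78 there were 5 IDR peaks in a compact locus, 0.429 per kb, the densest of the 14. The others lay at the starts of its neighbours eIF2D (rank 2808), Slbp (rank 1459) and Rpn2 (rank 3166), and in the coding sequence of superdeath (rank 1016). Slbp encodes the histone stem-loop binding protein and Rpn2 a proteasome subunit. Sgt1 had 4 IDR peaks, 0.361 per kb, which besides those already given lay at mRpL1 (rank 2198) and tex (rank 2035). The Dpm3 locus held 3, with weak peaks in GILT1 (rank 2492) and at yellow-e2 (rank 3568). CG10602 and mRpL13 shared 2, the weaker at an internal start of CG10602 (rank 2427). VhaAC45 and Uba1 had no IDR peak other than their own.

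**Figure D4:**
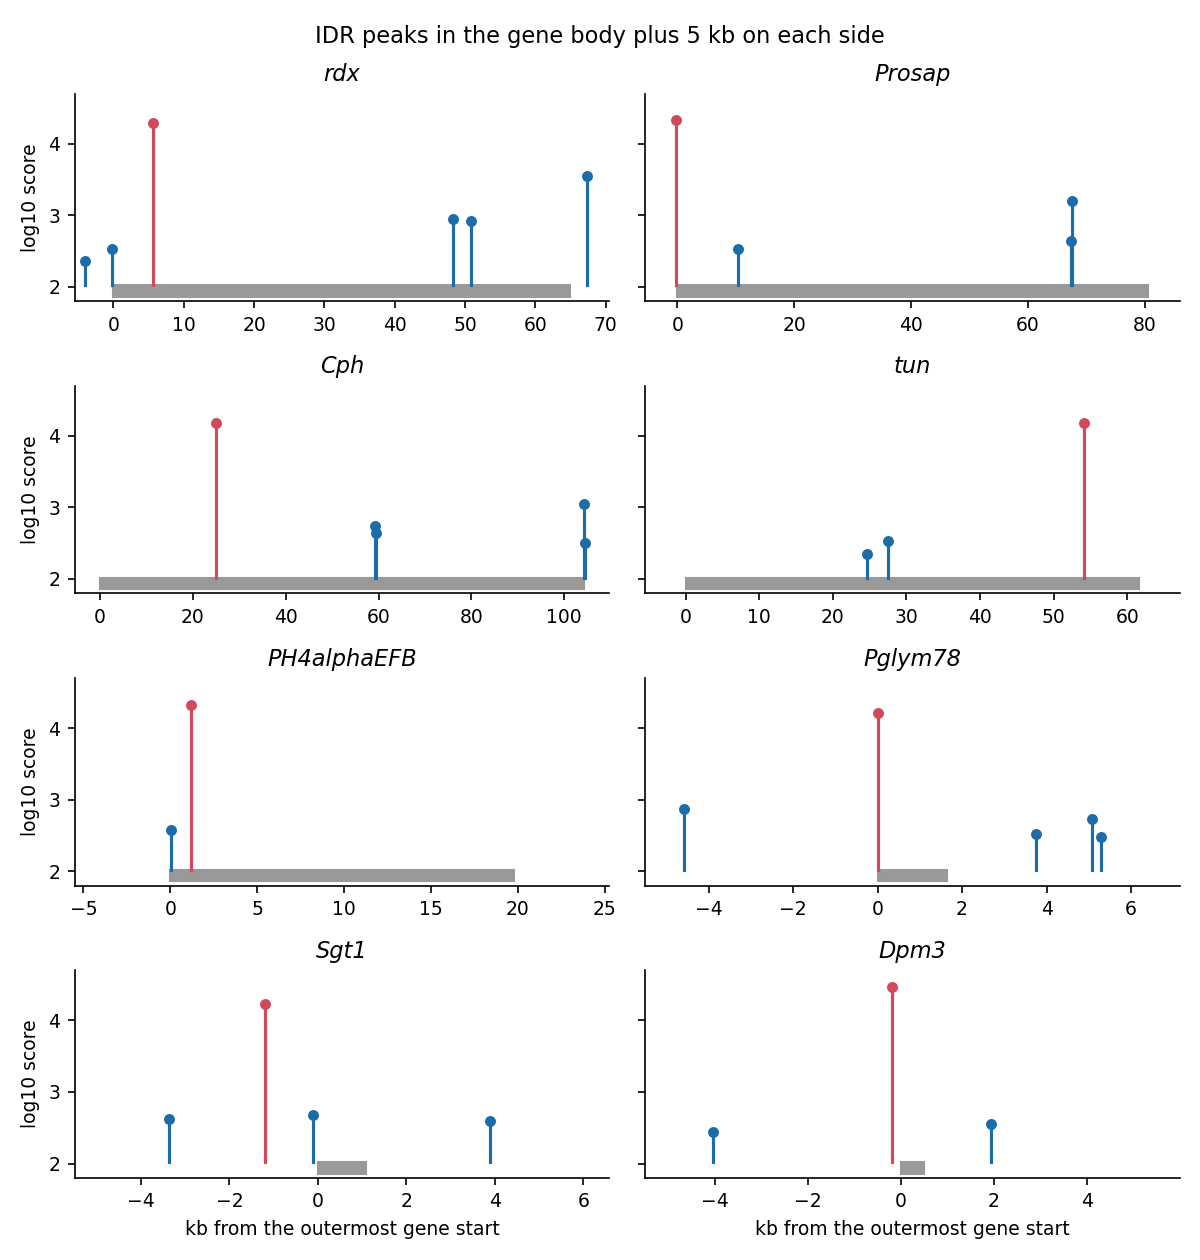
IDR peaks in 8 of the 14 loci, with distance in kb from the outermost gene start in the direction of transcription on the horizontal axis and log10 of the authors' score on the vertical axis; grey bars are gene bodies, red stems the peak that chose the gene and blue stems the others. In each panel the red stem is the tallest, and the blue stems at the starts of PH4alphaEFB and Sgt1 are the weak peaks of ranks 2315 and 1702.

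Genes that work with the members were looked up in 10 lists of pathway partners. Of 99 partners, 41 had an IDR summit within 500 bp of a start (41.4%), where 24.8% of all coding genes did. The lists were chosen with earlier results of these data known, so these shares and ranks are only a description. The share differed widely between lists, and no list was tested. The bound partners had a median IDR rank of 1235, beside 2278 over all bound genes.

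The list of ubiquitin and ubiquitin-like activation around Uba1 had the highest share, 10 of 14. Among them were Uba2 (rank 343), which activates SUMO, and the conjugating enzymes ben (707) and Ubc10 (1166). For the glycolytic list around Pglym78 the count was 7 of 13. PyK, pyruvate kinase, was the strongest at rank 218 and had a core, degenerate or Elba site. Gapdh2 followed at 430 and Eno at 535, while the second phosphoglycerate mutase gene Pglym87 had no summit at its start.

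Among Hsp90 and its cochaperones 4 of 7 partners of Sgt1 were bound, with Dpit47 at rank 15 and Hsp83, the fly Hsp90, at 483. In the N-end rule list of tun 3 of 5 were bound: Ate1 (rank 146), which adds arginine to N-termini, Ntan1 (561), an amidase for N-terminal asparagine, and Kcmf1 (4025). Of the neuroblast timing factors set beside Cph, 6 of 13 were bound, with pdm2 at rank 119, svp at 185 and nub at 533. chinmo, at 846, had a core, degenerate or Elba site, and hb, Kr and cas had no summit at a start.

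In the remaining lists at most 3 of 10 partners were bound, apart from the short list of the Dpm3 enzyme. Of the Cullin 3 and Hedgehog genes around rdx 3 of 10 were bound: hh (rank 1369), cos (4023) and smo (4150). Neither Cul3 nor ci had a summit at a start. For the postsynaptic list of Prosap the count was 3 of 12, with dlg1 at rank 65. For the aminopeptidases around CG10602 it was 2 of 9, Psa (3459) and CG46339 (4255). Of the collagen genes around PH4alphaEFB 2 of 14 were bound, Plod (rank 92), a lysyl hydroxylase with a site at its summit, and Pdi (3612), whereas the collagens Col4a1 and vkg had none. Of the other 2 subunits of the Dpm3 enzyme, Dpm2 was bound (2119) and Dpm1 was not.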

How the data were processed

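Per the labels, anti-GFP ChIP-seq was done on 3 biological replicates of a single line with chromatin sonicated to 200 to 800 bp. Per the file headers, the authors called regions on alignments with a control alignment and passed them to IDR. The deposited score of each region is the authors' own value, of unstated scale, and was used within a list. The deposited significance column holds −log10 q-values, counted below 0.05. No caller, aligner or read total is named there.

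Positions count from 1, on dm6. Genes come from Ensembl release 115, BDGP 6.54, and sequence from the Release 6 assembly. An IDR peak was matched to the strongest region of a replicate list that holds its summit. Bound genes have an IDR summit at most 500 bp from any of their starts. Of 111 symbols in the partner lists 109 matched. The named genes are the 14, their flanking genes, the peaks of ranks 14 to 20, and the bound partners (up to 6 a list). The members and lists were chosen with earlier results of these data known. No test was run, since strength chose the members and there is 1 group. The site search was tested on simulated data. Python 3.11.15, numpy 2.4.6, pandas 2.3.3 and matplotlib 3.10.9 were used. Sequences from 2R are not reported here.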

Additional observations from a re-analysis of the deposited data

How the results depend on the processing

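Of 48 alternatives for 8 results, 43 stayed close to the value given and 5 moved. The median width of the 13 peaks was 881 bp in the list of replicate 1. Without flanks the loci held 25 IDR peaks. With a window of 25 bp, 3 summits had a core, degenerate or Elba site, against 4.29% of all IDR peaks. With a promoter window of 250 bp, 5 summits were at a promoter. The share of all IDR peaks was not counted at that window. Their median distance to a coding TSS, 212 bp, falls inside it, whereas that of the 13, 396 bp, does not. With the stronger 50% of the IDR peaks, 26 partners were bound, against 12.95% of all coding genes. The count of peaks in the top 13 of every list was 11 without any single replicate. Ranking by q-value gave 13, but 2415, 6095 and 6562 regions tie at the lowest q-value in replicates 1, 2 and 3. Leaving out a replicate gave median widths of 1042 to 1211 bp, a mean percentile of 99.98 each time, and 33 to 34 bound partners, against 18.1% to 20.04% of all coding genes (24.8% with all replicates). The 6-base site (8 summits) was chosen after seeing the data. No paired analysis was possible because the samples form a single group.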
